A study of Cavia porcellus with 72 samples.

Results

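The postsynaptic density is the protein mesh under the membrane of an excitatory synapse, and its scaffold proteins hold glutamate receptors and their signalling partners in place. Of 9 scaffold genes chosen by symbol, 8 were found among the 11446 genes listed in all 3 generations: the SHANK master scaffolds SHANK1, SHANK2 and SHANK3, the adaptors HOMER1 and HOMER2, DLG4 (which encodes PSD-95), DLGAP3 (SAPAP3, one of the proteins that tie PSD-95 to SHANK) and CNKSR2 (a synaptic signalling scaffold). DLGAP1 was not analysed here. All 8 passed the filter on low counts in every comparison.

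The mRNA came from powdered right hippocampus of juvenile female Dunkin-Hartley guinea pigs at postnatal day 40. In the sGC lineage the F0 pregnancy had received repeated courses of the synthetic glucocorticoid (sGC) betamethasone, and in the control lineage it had received saline vehicle. F1 animals were exposed in utero. F2 and F3 were bred through F1 and F2 males mated with non-experimental females, so that F2 and F3 females were not themselves treated, and their mothers did not come from the treated lineage. There were 6 control and 5 sGC animals in F1, 6 and 6 in F2, and 6 and 7 in F3, each animal from a different mother.

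The 36 libraries held 13507449 to 19767033 counted reads each, and replicate libraries of a group differed by more than counting noise in all 91 pairs compared. Among the sample numbers, 5 sGC libraries and no control library carry numbers from 32 to 36: F1 sGC replicates 4 and 5, F2 sGC replicate 6, and F3 sGC replicates 5 and 6. F1 sGC replicate 4 stood apart. It had the highest summed level of all 36 libraries for the astrocyte, microglia and endothelium markers, and the lowest for the interneuron markers. Hippocampal markers were present, with PROX1, a dentate granule cell gene, at a mean of 110.4 counts per 1000000 reads (CPM), and SLC17A7, the vesicular glutamate transporter of excitatory neurons, at 1787 CPM over all libraries.

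In these proteins the chain runs inwards from the membrane. PSD-95 binds NMDA receptors and the proteins that anchor AMPA receptors, DLGAP proteins bind the guanylate kinase domain of PSD-95, SHANK proteins bind DLGAP proteins and Homer proteins, and Homer proteins bind group I metabotropic glutamate receptors. Human variants in SHANK3, SHANK2 and CNKSR2 are known from neurodevelopmental disorders, and mice without DLGAP3 groom compulsively. Levels below are CPM on one TMM scaling (trimmed mean of M values) over the 36 libraries, given as mean ± SD of n animals. Levels are not compared between genes, because transcript lengths were not used. In pieces of whole tissue, fewer cells of a type and less RNA per cell cannot be told apart.

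In F1, HOMER2 and SHANK2 rose in sGC animals. In F3, SHANK1, SHANK3 and DLG4 rose. The SHANK2 call was kept in only 2 of 11 omissions of 1 library, and the DLG4 call in only 1 of 13. In F2 no member passed the test, and no member's effect was shown to differ between generations by the interaction tests given further on. HOMER1 did not pass the test in any generation, and CNKSR2 lay lower in sGC animals of F2 and F3 without passing it. By edgeR's quasi-likelihood test within each generation, with Benjamini-Hochberg adjustment over all genes tested and a threshold of 0.05, 2 of 8 members were called in F1, against 2.08% of all genes, and both were higher, against 1.63%. In F2 it was 0 of 8 against 0% of all genes, and in F3 3 of 8 against 5.04%, all 3 higher, against 2.17%. The members were chosen with earlier results of these data known, so these shares are a description and give no independent support. The F2 count at an unadjusted p under 0.05 was 2 (SHANK3 and CNKSR2), where 6.64% of all genes passed. At the adjusted threshold DESeq2 called 1 member in F2 (CNKSR2), where it called 10 of 11414 genes. The median log2 fold change of the 8 members was 0.18 in F1, 0.04 in F2 and 0.14 in F3, while the median over all genes was -0.01, -4.07e-04 and 4.76e-03. A positive fold change was found in 6 members in F1 (48.3% of all genes did), 5 in F2 (49.7%) and 6 in F3 (51.7%).

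**Figure D1:**
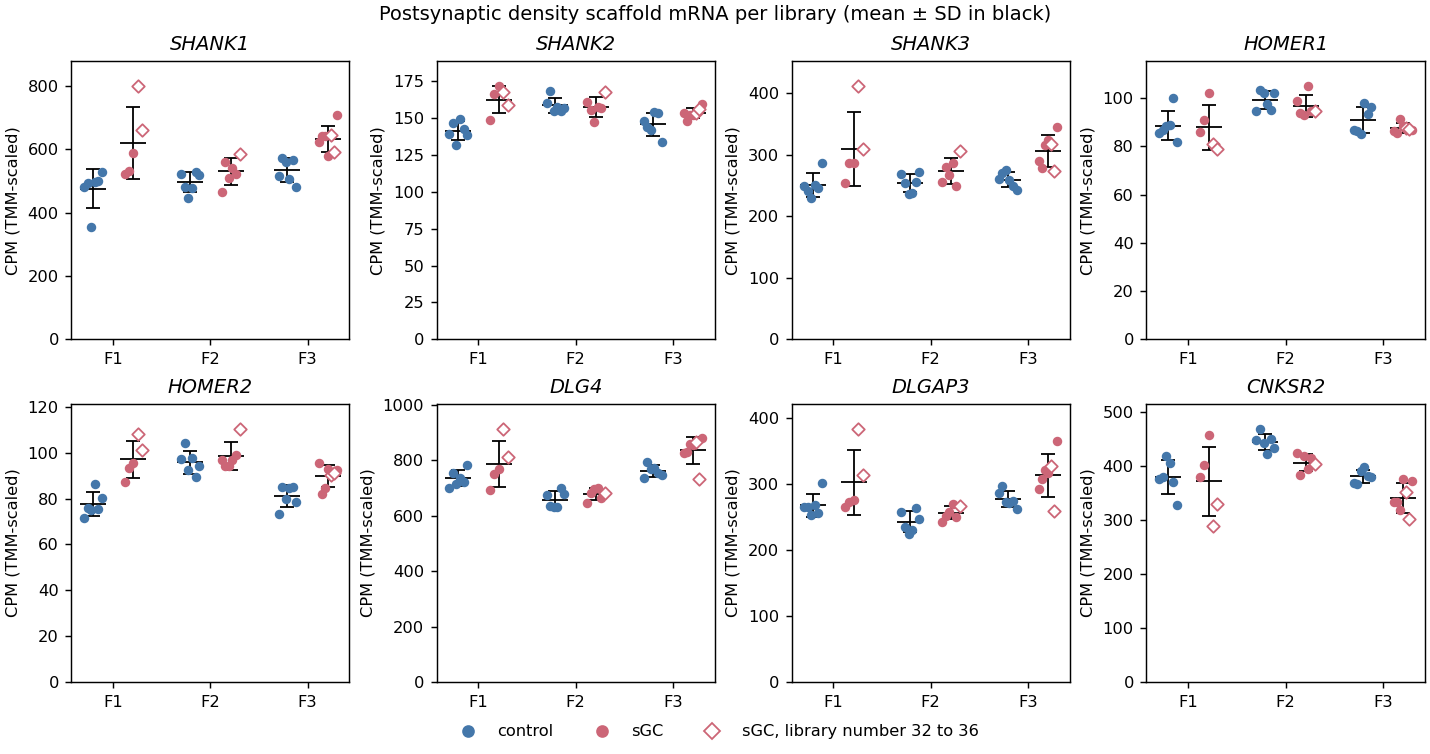
Level of each of the 8 scaffold genes (vertical axes, TMM-scaled CPM, starting at 0) in each library of F1, F2 and F3; blue points are control animals, red points are sGC animals, open diamonds are the sGC libraries numbered 32 to 36, and black bars give mean ± SD of each group. SHANK1 in F3 and HOMER2 in F1 are the panels where the control and sGC points do not overlap, and the F1 sGC diamond at 798 CPM for SHANK1 is the highest of the 36 libraries.

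SHANK1 is a large scaffold whose mRNA is known to be carried into dendrites. In F1 control animals its level ran from 355 to 529.6 CPM with a median of 495, and the mean was 476 ± 61.6 CPM (SD, n = 6). The 5 F1 sGC animals stood at 523, 533, 587, 798 and 661 CPM, with a mean of 620.3 ± 113 CPM (SD, n = 5). All 5 were above the control mean, but 1 lay within the control range, and the highest was sGC replicate 4. The log2 fold change was 0.38 ± 0.12 (SE), with an adjusted p of 0.1004 by edgeR's quasi-likelihood test, so SHANK1 was not called in F1. The likelihood ratio test (adjusted p = 0.0375), DESeq2 (0.0294) and the fit to all 36 libraries (0.00607) did call it, and without libraries 32 to 36 the log2 fold change was 0.20 (adjusted p = 0.316). In F2 the control animals spanned 447 to 528 CPM around a median of 499.8 (mean 495 ± 31.7, SD, n = 6), and the sGC animals spanned 466 to 585 CPM around a median of 531 (mean 530.1 ± 41.6, SD, n = 6). Those ranges overlapped, and the log2 fold change of 0.10 had a 95% interval from -0.01 to 0.21.

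In F3 the SHANK1 groups separated. Control animals lay between 481 and 573 CPM with a median of 538 (mean 534 ± 37.9, SD, n = 6), and sGC animals between 579 and 707 CPM with a median of 641 (mean 632 ± 41.9, SD, n = 7). Every sGC animal exceeded every control animal, which was the case in either direction for 2.71% of all genes in F3. SHANK1 was 1.19-fold higher, with a log2 fold change of 0.25 ± 0.05 (SE) and an adjusted p of 0.00931 by edgeR's quasi-likelihood test. An exact two-sided permutation test over the 1716 ways to assign 7 of 13 animals gave p = 0.00117. With any 1 of the 13 libraries left out, SHANK1 was still called. When the F3 contrast was taken from 1 fit to all 36 libraries, which shares 1 estimate of the spread over all groups, the adjusted p was 0.0683.

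SHANK3, the SHANK family member best known from Phelan-McDermid syndrome, had the same directions as SHANK1. In F1 the control range was 229 to 286 CPM around a median of 247 (mean 250.3 ± 19.3, SD, n = 6), and the sGC values were 255, 286, 287, 411 and 309 CPM (mean 309 ± 59.8, SD, n = 5). The replicate at 411 was again sGC replicate 4. The log2 fold change of SHANK3 was 0.30 ± 0.10 (SE), with an adjusted p of 0.124 by edgeR's quasi-likelihood test. The fit to all 36 libraries called it (adjusted p = 0.0133). Without the libraries numbered 32 to 36 the log2 fold change was 0.13 (adjusted p = 0.295). In F2 the controls ran from 236 to 271 CPM (median 255, mean 254 ± 15.1, SD, n = 6) and the sGC animals from 249 to 306 CPM (median 273, mean 274 ± 21.2, SD, n = 6), a log2 fold change of 0.11 that passed only the unadjusted threshold (adjusted p = 0.739, edgeR).

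The F3 rise of SHANK3 was nearly as large as that of SHANK1. Control animals ran from 242 to 276 CPM with a median of 259.7 (mean 259 ± 12.6, SD, n = 6), and sGC animals from 273 to 344 CPM with a median of 315 (mean 306 ± 25.9, SD, n = 7). The groups met only at their edges, where sGC replicate 6 at 273 CPM lay below the highest control at 276 CPM. SHANK3 was 1.18-fold higher, with a log2 fold change of 0.24 ± 0.05 (SE) and an adjusted p of 0.0123 by edgeR's quasi-likelihood test. The call held with each of the 13 libraries left out and without libraries 32 to 36 (adjusted p = 0.0220), and was lost in the fit to all 36 libraries (adjusted p = 0.0536).

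SHANK2, the other SHANK scaffold, rose in F1. Control animals there lay between 132 and 149.2 CPM with a median of 140.4 (mean 141 ± 6.37, SD, n = 6). The sGC animals stood at 148.5, 166, 171, 167 and 158 CPM (mean 162 ± 8.96, SD, n = 5), so that 4 of 5 were above every control and the lowest overlapped the highest control by under 1 CPM. SHANK2 was 1.15-fold higher, with a log2 fold change of 0.20 ± 0.05 (SE) and an adjusted p of 0.0447 by edgeR's quasi-likelihood test. The size changed little when libraries were left out, with a log2 fold change of 0.19 without those numbered 32 to 36, but the call was kept in only 2 of 11 omissions of 1 library, and the adjusted p reached 0.0939 without sGC replicate 3. In F2 the means were 158 ± 5.06 CPM in control and 157 ± 6.70 CPM in sGC animals (SD, n = 6 each), with a 95% interval of the log2 fold change from -0.08 to 0.06. The difference from F1 was tested by the interaction given further on and was not called (adjusted p = 0.0535, edgeR's quasi-likelihood test). In F3 the sGC mean of 153 ± 3.49 CPM (SD, n = 7) stood against 146 ± 7.76 CPM (SD, n = 6) in control animals, and the log2 fold change of 0.08 was not called (adjusted p = 0.207, edgeR).

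HOMER2 encodes a Homer protein with a coiled coil that lets it form tetramers, and it was the member whose groups did not overlap in F1. Control animals lay between 71.6 and 86.6 CPM with a median of 75.6 (mean 77.5 ± 5.26, SD, n = 6), and the sGC animals at 87.4, 93.1, 95.4, 108 and 101 CPM (mean 97.1 ± 7.996, SD, n = 5). No sGC animal fell within the control range; groups that did not overlap, in either direction, made up 4.41% of all genes in F1. HOMER2 was 1.25-fold higher, with a log2 fold change of 0.32 ± 0.06 (SE), an adjusted p of 0.0191 by edgeR's quasi-likelihood test, and p = 0.00433 by an exact two-sided permutation test over 462 assignments. The call was kept in 9 of 11 omissions of 1 library and lost without control replicate 1 (adjusted p = 0.0507) and without sGC replicate 5 (adjusted p = 0.0541). Without both libraries numbered 32 to 36 in F1 the log2 fold change was 0.24 and the adjusted p was 0.0595.

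HOMER2 in F2 control animals (89.4 to 104 CPM, median 95.6, mean 95.9 ± 5.06, SD, n = 6) already lay where the F1 sGC animals lay, and the F2 sGC animals did not differ from them by more than the spread (94.1 to 110.3 CPM, median 96.9, mean 98.6 ± 6.03, SD, n = 6). The F2 log2 fold change of 0.04 had a 95% interval from -0.05 to 0.13. In F3 the control range was 73.1 to 85.2 CPM (median 82.2, mean 81.0 ± 4.82, SD, n = 6) and the sGC range 82.0 to 95.4 CPM (median 91.1, mean 89.8 ± 4.83, SD, n = 7). All 7 sGC animals exceeded the control mean, and the log2 fold change of 0.15 ± 0.04 (SE) narrowly missed the threshold (adjusted p = 0.0517, edgeR's quasi-likelihood test). DESeq2 placed it at 0.0152. By edgeR's quasi-likelihood test it was at 0.142 without libraries 32 to 36 and at 0.177 with replicate number as a block.

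HOMER1 showed no difference past the threshold. The gene gives long adaptor forms and a short form, induced by neuronal activity, that lacks the coiled coil and uncouples Homer links; gene-level counts do not separate them. Control and sGC means were 88.6 ± 6.09 (SD, n = 6) and 87.9 ± 9.29 CPM (SD, n = 5) in F1, 99.2 ± 3.80 and 96.6 ± 4.49 CPM (SD, n = 6 each) in F2, and 91.0 ± 5.51 (SD, n = 6) and 87.6 ± 1.99 CPM (SD, n = 7) in F3. The ranges overlapped in each generation. The 95% intervals of the log2 fold change ran from -0.16 to 0.12 in F1, -0.11 to 0.04 in F2 and -0.13 to 0.03 in F3. In F1 the direction itself was not stable, at -0.02 with all libraries and 0.065 without those numbered 32 to 36.

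DLG4, the gene for PSD-95, rose in F3. Control animals lay between 738 and 795 CPM with a median of 761 (mean 762 ± 20.5, SD, n = 6). Of the 7 sGC animals, 6 lay between 828 and 883 CPM, above every control, and sGC replicate 6 lay at 733 CPM, below every control (mean 836 ± 49.5, SD, n = 7). DLG4 was 1.099-fold higher, with a log2 fold change of 0.14 ± 0.04 (SE) and an adjusted p of 0.0470 by edgeR's quasi-likelihood test, close to the threshold. Leaving out sGC replicate 6 brought the adjusted p to 0.00573, and leaving out any of the other 12 libraries took it above the threshold, up to 0.104 without sGC replicate 5. In F1 the control animals ran from 702 to 783 CPM (mean 736 ± 29.7, SD, n = 6), the sGC animals stood at 692, 753, 768, 913 and 814 CPM (mean 788 ± 82.6, SD, n = 5), and the log2 fold change of 0.09 became -0.0030 without libraries 32 to 36. In F2 the means were 659 ± 29.1 CPM in control and 679 ± 20.3 CPM in sGC animals (SD, n = 6 each), with a 95% interval of the log2 fold change from -0.02 to 0.11.

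DLGAP3, the link between PSD-95 and SHANK, followed DLG4 from animal to animal. In F3 its control range was 262 to 297 CPM (median 273, mean 277 ± 12.5, SD, n = 6) and its sGC range 259 to 365 CPM (median 317, mean 313 ± 32.6, SD, n = 7). The lowest sGC animal was again replicate 6. The log2 fold change of 0.18 ± 0.06 (SE) was not called (adjusted p = 0.0835, edgeR's quasi-likelihood test). With all F3 libraries the likelihood ratio test (adjusted p = 0.0493) and DESeq2 (0.0307) called it. By the quasi-likelihood test it was called without replicate 6 (adjusted p = 0.0115) and without both libraries numbered 32 to 36 (0.0359). With replicate number as a block that test did not call it (0.159). In F1 the control animals spanned 252 to 302 CPM (mean 268 ± 17.7, SD, n = 6) and the sGC animals stood at 265, 273, 276, 383 and 314 CPM (mean 302 ± 49.0, SD, n = 5). Of those 5 sGC values, 3 lay inside the control range, and the log2 fold change of 0.17 was 0.013 without libraries 32 to 36. In F2 the means were 243 ± 15.6 CPM in control and 256 ± 10.2 CPM in sGC animals (SD, n = 6 each), a log2 fold change of 0.08 that was not called.

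CNKSR2 lay lower in sGC animals of F2 and F3 but was called in no generation. It encodes a neuronal scaffold of small GTPase signalling that binds PSD-95. In F2 control animals ran from 423 to 469 CPM with a median of 446 (mean 445 ± 15.4, SD, n = 6), and sGC animals from 384 to 424 CPM with a median of 409 (mean 407 ± 15.5, SD, n = 6). All 6 sGC animals lay below the control mean, and the groups overlapped by about 1 CPM. The log2 fold change was -0.13 ± 0.03 (SE), an unadjusted p of 7.99e-04 that ranked 15th among the 11414 genes tested, with an adjusted p of 0.507 by edgeR's quasi-likelihood test. An exact two-sided permutation test over 924 assignments gave p = 0.00433, and DESeq2 gave an adjusted p of 0.0446.

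In F3 the CNKSR2 difference had the same size. Control animals spanned 367 to 399 CPM (median 380.4, mean 381 ± 12.6, SD, n = 6), and sGC animals 302 to 376 CPM (median 334, mean 341 ± 27.4, SD, n = 7). Again no sGC animal reached the control mean, and 2 lay within the control range. The log2 fold change of -0.16 ± 0.05 (SE) had an adjusted p of 0.0579 by edgeR's quasi-likelihood test and 0.0160 by DESeq2. Without libraries 32 to 36 the adjusted p was 0.135, and with replicate number as a block 0.0623, both by edgeR's quasi-likelihood test. In F1 the control animals ran from 328 to 419 CPM (mean 380.0 ± 31.8, SD, n = 6) and the sGC animals were scattered on both sides, at 379.5, 403, 457, 289.8 and 330.5 CPM (mean 372 ± 64.6, SD, n = 5). The F1 log2 fold change was -0.04 with all libraries and 0.11 without those numbered 32 to 36, so its direction rested on those 2 libraries.

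**Figure D2:**
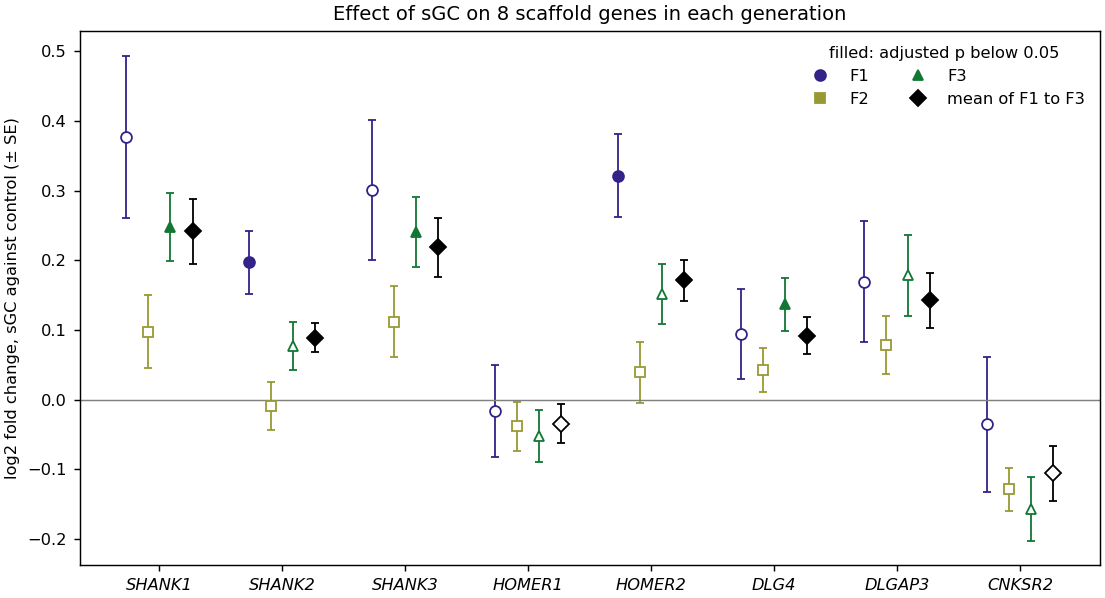
Log2 fold change of sGC against control (vertical axis, ± SE) for the 8 scaffold genes in F1 (circles), F2 (squares), F3 (triangles) and as the mean of the 3 generations (diamonds), with filled symbols where the adjusted p was below 0.05 by edgeR's quasi-likelihood test. The F2 squares lie nearest to 0 for the 6 genes with a filled diamond, and CNKSR2 lies below 0 in each generation, from -0.04 in F1 to -0.16 in F3.

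The average effect over the 3 generations, from 1 fit to the 36 libraries, called 6 of 8 members, all higher in sGC animals, against 8.53% of all genes (4.87% called higher). This contrast uses the same animals as the values within generations and adds no independent support to them. HOMER2 (log2 fold change 0.17 ± 0.03, SE, adjusted p = 0.00142), SHANK1 (0.24 ± 0.05, 0.00310) and SHANK3 (0.22 ± 0.04, 0.00311) had the smallest adjusted p, followed by SHANK2 (0.09 ± 0.02, 0.00994), DLGAP3 (0.14 ± 0.04, 0.0226) and DLG4 (0.09 ± 0.03, 0.0284), by edgeR's quasi-likelihood test. CNKSR2 had a log2 fold change of -0.11 (adjusted p = 0.0803) and HOMER1 of -0.03 (0.472). Without the 5 libraries numbered 32 to 36 only SHANK3 (0.16, adjusted p = 0.0345) and HOMER2 (0.13, 0.0451) were called, with SHANK1 at an adjusted p of 0.0537. Of all genes, 60 of 11419 were called in that setting, against 972 of 11389 with every library. In the fit to all 36 libraries 6 of 8 astrocyte markers were called higher (list median 0.18, with AQP4 at 0.24), as was the neuron marker MAP2 (0.19). The neuron markers ENO2 (-0.11), NEFL (-0.09) and ELAVL4 (-0.09) were called lower in it. The part of these markers in the scaffold values was not tested. The genes SHANK1, SHANK3, HOMER2, DLG4 and DLGAP3 had a positive fold change in every generation, as 17.3% of all genes did, and HOMER1 and CNKSR2 a negative one, as 17% of all genes did.

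Whether the sGC effect differed between generations was tested by the interaction. In F2 against F1, 0 of 8 members passed, where 0.351% of all genes did, and the unadjusted count was 3 members against 16.7% of genes. SHANK2 (difference in log2 fold change -0.21, 95% interval -0.32 to -0.10, adjusted p = 0.0535) and HOMER2 (-0.29, -0.43 to -0.14, 0.0558) lay just above the threshold, by edgeR's quasi-likelihood test, and DESeq2 called both (0.0178 and 0.0222). Of all genes, DESeq2 called 202 of 11389 in this interaction. In F3 against F1 and in F3 against F2 no member and no gene was called; the unadjusted counts were 2 and 0 members, where 13.1% and 9.01% of all genes passed. DESeq2 called 63 and 0 genes in those tests, none of them a member. The edgeR count in F3 against F1 depended on few libraries. It was 439 genes without F1 sGC replicate 4 and 420 without libraries 32 to 36, again with 0 members. For SHANK1 the interaction of F3 against F1 was -0.14 with a 95% interval from -0.37 to 0.10, so the F1 and F3 effects of 0.38 and 0.25 were not shown to differ.

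**Figure D3:**
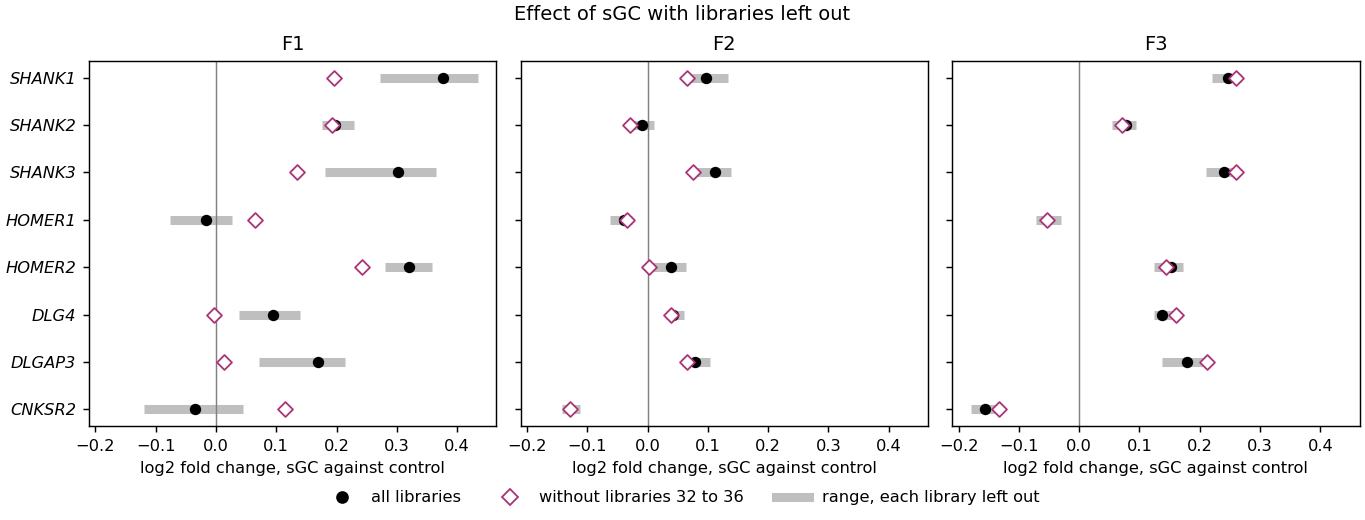
Log2 fold change of sGC against control (horizontal axis) for the 8 scaffold genes in F1, F2 and F3, with all libraries (black points), without libraries 32 to 36 (open diamonds) and as the range when each library is left out in turn (grey bars). In F1 every diamond but that of SHANK2 lies outside the grey bar, among them DLG4 at -0.0030, DLGAP3 at 0.013 and CNKSR2 at 0.11, while in F3 the diamonds stay near the black points.

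The scaffold genes also differed between control animals of different generations. A test over F1, F2 and F3 control animals called 6 of 8 members, where 44.8% of all genes passed, so differences of this kind were common. HOMER2 was 0.31 higher on the log2 scale in F2 than in F1 control animals (adjusted p = 1.7e-05, edgeR), CNKSR2 0.23 higher and SHANK2 0.17 higher, and in all 3 genes every F2 control animal exceeded every F1 and every F3 control animal. DLG4 was lower, at -0.16, with every F2 control animal below all others. For how many of all genes the F2 control animals separated in this way was not counted, so these separations are a description. HOMER1 and DLGAP3 passed the test with overlapping ranges. SHANK1 and SHANK3 did not pass it (adjusted p = 0.152 and 0.678). F3 and F1 control animals differed by 0.06 in HOMER2, 3.39e-03 in CNKSR2 and 0.05 in DLG4. The summed level of 7 hippocampal excitatory neuron markers was also lower in F2, at 1638 to 1797 CPM in control animals against 2474 to 2871 CPM in F1 and 2556 to 2734 CPM in F3. SLC17A7 weighed most in that sum, at a mean of 1787 CPM over all libraries, and the next marker, NEUROD2, had 158 CPM. The sum therefore does not show a shift of each marker. Generation and the order of sample numbers cannot be told apart.

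From animal to animal, 4 members covaried closely. With each group's mean taken off, DLG4 and DLGAP3 had a Pearson r of 0.91 over the 36 libraries, SHANK3 and DLGAP3 0.88, SHANK3 and DLG4 0.84, and SHANK1 0.72 to 0.77 with these 3. The r of DLG4 and DLGAP3 was 0.93 in F1, 0.92 in F2 and 0.87 in F3, and 0.77 without libraries 32 to 36, a check added after the values were seen. SHANK1 was less close in F3, at 0.52 with SHANK3, 0.52 with DLG4 and 0.64 with DLGAP3. Without libraries 32 to 36 its r with those genes was 0.60, 0.59 and 0.63. SHANK2 and HOMER2 had an r of 0.58 with each other (0.53 in F1, 0.86 in F2 and 0.41 in F3). With DLG4 they had 0.15 and 0.38. That order did not hold in F1, where HOMER2 had 0.82 with DLG4. HOMER2 also had 0.50 with SHANK3 over the 36 libraries. HOMER1 and CNKSR2 correlated with each other at 0.52 overall but at 0.00 in F2 and 0.08 in F3. These are descriptions over libraries that share depth, scaling and cell make-up, and they were not tested.

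**Figure D4:**
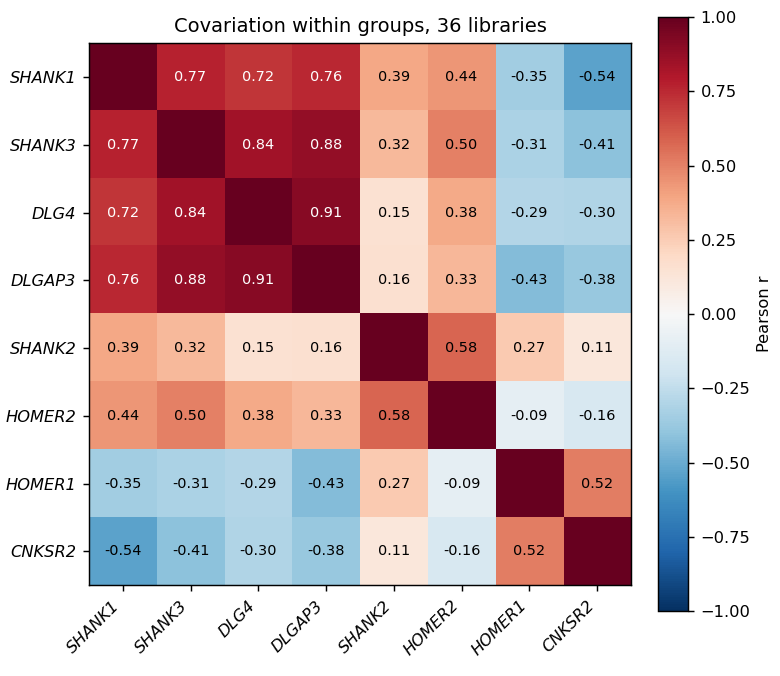
Pearson correlation of log2 level between each pair of the 8 scaffold genes over the 36 libraries after each group's mean was taken off (colour scale from -1 to 1). SHANK1, SHANK3, DLG4 and DLGAP3 form a block from 0.72 to 0.91, and CNKSR2 is at -0.54 with SHANK1. In F3 alone, not drawn, SHANK1 is at 0.52 to 0.64 with SHANK3, DLG4 and DLGAP3.

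CNKSR2 varied differently with each SHANK gene. With SHANK2 its r was 0.11 over the 36 libraries. With SHANK1 it was -0.54, with -0.74 in F1 and 0.16 in F3, and -0.35 without F1 sGC replicate 4. With SHANK3 it was -0.41, with -0.78 in F1 and 0.65 in F3, and -0.07 when that library was left out, a check added in the same way. The ratio of SHANK3 to CNKSR2 reads, also chosen after their values were seen and given as a description, was 0.638 to 0.736 in F3 control animals and 0.835 to 0.989 in F3 sGC animals. The ratio of SHANK1 to CNKSR2 reads was 1.27 to 1.56 and 1.54 to 2.01 in the same groups, overlapping at the edge. In F2 it was 1.01 to 1.19 in control and 1.099 to 1.46 in sGC animals, and in F1 0.846 to 1.62 and 1.29 to 2.75. The SHANK3 ratio also overlapped in F1 (0.547 to 0.874 and 0.628 to 1.42) and in F2 (0.531 to 0.6249 and 0.602 to 0.758). A ratio shows unequal change of the pair, not which of them changed.

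**Figure D5:**
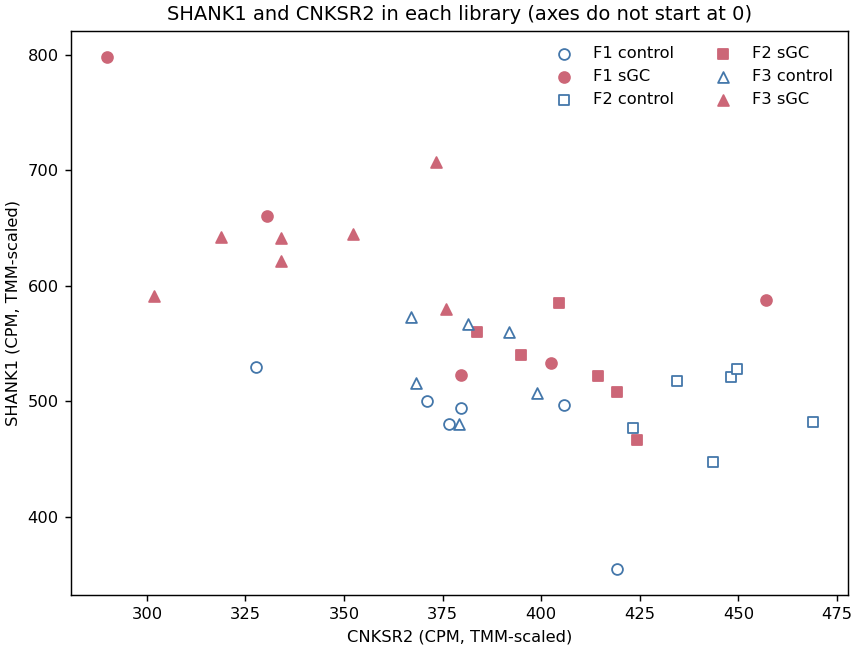
SHANK1 level against CNKSR2 level in each of the 36 libraries (TMM-scaled CPM, axes not starting at 0), with open symbols for control and filled symbols for sGC animals and the shape giving the generation. The F3 sGC triangles lie above and mostly to the left of the F3 control triangles, and 1 F1 sGC library sits at the corner, at 798 CPM of SHANK1 and 289.8 CPM of CNKSR2.

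The genes whose residual level was most like that of each member were named by the highest Pearson r over the 36 libraries. For SHANK3, DLG4 and DLGAP3 the lists shared AGAP2 and BRSK1: SHANK3 was closest to AGAP2 (0.91), AMZ1 (0.90) and BRSK1 (0.89), DLG4 to BRSK1 (0.93), PPP2R2C (0.93) and AGAP2 (0.92), and DLGAP3 to AGAP2 (0.95), BRSK1 (0.94) and JPH3 (0.94). SHANK1 was closest to CDC42BPB (0.85), CIC (0.85) and SH3PXD2A (0.85). CNKSR2 was closest to SCN3B (0.89), WASF1 (0.87) and RTN4 (0.87). SHANK2 (RORA 0.77, RREB1 0.74, PARP8 0.73), HOMER2 (C1orf21 0.77, PTPN21 0.77, PYGO1 0.77) and HOMER1 (PITPNB 0.75, TAX1BP1 0.73, UBLCP1 0.72) had less close neighbours. Against all 11388 other genes, the 95th percentile of r was 0.54 for DLGAP3 and 0.36 for SHANK2.

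Of 8 further genes of the same families, 7 were tested. In F1 none was called; DLG2, which encodes PSD-93, came closest (log2 fold change 0.19, adjusted p = 0.0533, edgeR), with CNKSR3 at 0.12. In F2 none was called, with CNKSR1 at -0.52 and DLG3 at -0.05, and CNKSR1 stood below 2 CPM on average. In F3 DLG3, which encodes SAP102, fell by 0.17 on the log2 scale (adjusted p = 0.00568), where 5.04% of all genes were called, while DLG4 rose. The average over generations called 2 of the 7, against 8.53% of all genes: DLG2 higher (0.09) and DLG3 lower (-0.09).

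Of 40 genes whose proteins bind these scaffolds, 33 were tested in each generation. In F1, 4 rose and none fell, where 2.08% of all genes were called: GRM5, the metabotropic glutamate receptor that Homer proteins bind (log2 fold change 0.42 ± 0.07, SE, adjusted p = 0.0102, edgeR), LRRC7 (densin, 0.32), NOS1 (neuronal nitric oxide synthase, a PSD-95 ligand, 0.31) and TANC2 (a PSD-95 binding scaffold, 0.18). The median over the 33 was 0.07. In F2 none was called; CAMK2A, the calcium/calmodulin kinase of the postsynaptic density, stood at 0.08, with a list median of 0.002. In F3 none was called either, and 15 were positive and 18 negative, with LGI1 at -0.13 and LRRC7 at 0.18. The F3 list median was -0.008. The average over generations called 6 of 32 tested, all higher, against 8.53% of all genes (4.87% higher): MAGI2 (0.10), CAMK2A (0.18), ARHGEF7 (0.09), LRRC7 (0.17), GRM5 (0.16) and IQSEC2 (0.07).

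Scaffold genes of inhibitory synapses gave no call within a generation. Of 7 listed, 4 were tested. IQSEC3 stood at 0.27 in F1, 0.04 in F2 and 0.14 in F3, and GPHN (gephyrin) at -0.05 in F3. IQSEC3 alone of the 4 was called in the average over generations (0.15, adjusted p = 0.0107, edgeR), against 8.53% of all genes (4.87% higher). Immediate early genes, a class that includes the short HOMER1 form, gave no call within a generation among 10 tested of 11. In F1 8 were lower (median -0.30, with DUSP1 at -0.29 and JUNB at -0.31), all 10 were higher in F2 (median 0.17, with EGR4 at 0.08 and NR4A1 at 0.31) and 7 were higher in F3 (median 0.10, with EGR4 at 0.10 and DUSP1 at 0.11). EGR4 alone of the 10 was called in the average over generations (higher, 0.09), against the same 8.53% of all genes (4.87% higher).

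Cell type markers moved alongside the F3 calls. Among all genes, 5.04% were called in F3 in either direction. Of 8 pan-neuronal markers, 5 were called lower in F3 (SYT1 -0.19, ENO2 -0.17, NEFL -0.17, SNAP25 -0.19, ELAVL4 -0.17) and none higher, and their summed level was 7186 to 7902 CPM in control and 6932 to 7571 CPM in sGC animals. Of 6 interneuron markers 2 were called lower (GAD2 -0.20, GAD1 -0.24), with sums of 667 to 741 CPM and 574 to 671 CPM. Of 9 astrocyte markers 8 were tested and 3 were called higher (S100B 0.23, SLC1A2 0.24, GLUL 0.15), and their sums did not overlap, at 9256 to 10180.4 CPM in control and 10416 to 11896 CPM in sGC animals. Among single genes in F3, 2.71% had groups that did not overlap. No hippocampal excitatory neuron marker was called (7 tested). MAP2, a dendritic neuron marker, had a log2 fold change of 0.18 in F3 and was not called. The part of cell make-up in the F3 scaffold values was not tested.

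In F1 no neuron, interneuron or astrocyte marker was called. The astrocyte sum was 8395 to 10962 CPM in control and 9681 to 15742 CPM in sGC animals, where the highest was sGC replicate 4. Of 6 meningeal markers 2 were called lower in F1 (LUM -0.50, DCN -0.995), where 2.08% of all genes were called. The meningeal sums were 83.5 to 230.5 CPM in control and 54.8 to 112 CPM in sGC animals. RORA, on the thalamic neuron list and the gene most like SHANK2, was called higher in F1 (0.37). LEF1 on the same list was called higher in F3 (0.23). The list as a whole was mixed. Of its 6 markers, 2 were higher and 4 lower in F1 (median -0.03), and 3 were higher and 3 lower in F3 (median -0.02). No oligodendrocyte, microglia, endothelium, choroid plexus or striatal neuron marker was called in any generation; the choroid plexus list had 2 of 5 markers listed in every generation. In F2 no marker was called. The part of these lists in the scaffold values was not tested.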

How the data were processed

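RNA-seq read counts per gene, deposited by the authors as 1 table per generation, were used as raw counts. Per the labels, the submitters' processing notes name TopHat2 and edgeR, and the genome build behind these tables is not given in the sources used here. Columns of the authors' own comparison (fold changes, p-values) and the methylation tables, which hold only such comparisons, were not used. Counts were tested in R 4.3.3 with edgeR 4.0.16 (filterByExpr, minimum count 10, TMM scaling, quasi-likelihood test) within each generation, and in 1 fit of 36 libraries for the average, the interactions and, on the control libraries alone, the generations. Adjusted p is Benjamini-Hochberg over all genes tested, called below 0.05. Fits were checked on simulated data. Exact permutation tests used log2(CPM + 0.5). The animals came from independent mothers. Alternatives were the likelihood ratio test, DESeq2 1.42.0, its size factors, other filters, a replicate block and left-out libraries. Members and lists were chosen with earlier results of these data known. The text names every member, the 3 genes most like each, and in each list the called genes (up to 6), otherwise the 2 with the smallest p, apart from some list genes that are not reported here. Of the marker lists, called genes are named. Figures used matplotlib 3.10.9.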

Additional observations from a re-analysis of the deposited data

Results flagged for a closer look

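Of 48 groups (8 genes in 6 groups), 4 held a sample set far from its group by Dixon's criterion, which chance alone flags in about 1 in 20 groups. SHANK1 in F1 control replicate 3 was at 354.6 CPM, with the nearest other control at 480.4 CPM. HOMER2 in F2 sGC replicate 6 was at 110.3 CPM, with the nearest at 98.9 CPM. DLG4 in F3 sGC replicate 6 was at 733.4 CPM, with the nearest at 828.0 CPM. DLGAP3 in F1 control replicate 6 was at 301.7 CPM, with the nearest at 267.9 CPM.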

How the results depend on the processing

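The count of called members was 2 in F1, 0 in F2, 3 in F3, 6 in the average over generations and 0 in each interaction. In F1 it became 0 without libraries 32 to 36, where fewer animals were tested, 1 with the replicate block and 4 in the fit to all 36 libraries. Over all genes these F1 settings called 97 of 11473, 68 of 11377 and 844 of 11389, against 237 of 11377 in the main fit. In F2 it became 1 with DESeq2, which called 10 of 11414 genes there. In F3 it was 6 with the likelihood ratio test, 6 with DESeq2 and 0 in the fit to all 36 libraries. Over all genes these F3 settings called 788 of 11359, 937 of 11359 and 361 of 11389, against 573 of 11359 in the main fit. The F2 against F1 interaction gave 2 with the likelihood ratio test, 2 with DESeq2 and 1 with the stricter filter, and the average gave 2 without libraries 32 to 36. Among all genes that interaction called 168 of 11389, 202 of 11389 and 84 of 8970, against 40 of 11389 in the main fit. The average called 60 of 11419 genes without libraries 32 to 36, against 972 of 11389 in the main fit. Leaving out 1 library gave 0 to 2 in F1 (0 without control replicate 1 and without sGC replicate 5), 0 in F2, 2 to 4 in F3, 0 to 2 in the F2 against F1 interaction (2 without F1 sGC replicate 1, for example) and 4 to 7 in the average (4 without F1 sGC replicate 4). The control comparison gave 6 in each omission. Counts over all genes moved too, and F1 had 60 of 11370 without control replicate 1 and 56 of 11418 without sGC replicate 5. The F2 against F1 interaction had 122 of 11400 without F1 sGC replicate 1, and the average 524 of 11402 without F1 sGC replicate 4. Why the counts moved was not tested. Without libraries 32 to 36 the F1 log2 fold change turned for HOMER1 (0.065), DLG4 (-0.0030) and CNKSR2 (0.11). With 1 library left out it ranged from -0.076 to 0.026 for HOMER1 in F1, from -0.12 to 0.044 for CNKSR2 in F1 and from -0.030 to 0.011 for SHANK2 in F2.

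Replicate numbers did not pair the samples: over 17 pairs the correlation of deviations was -0.38 to 0.31, 3 pairs exceeded 0.1 and 2 correlated best with their own number. With the replicate block, SHANK1 and SHANK3 in F3 had adjusted p of 0.0243 and 0.0472, DLG4 0.127, and SHANK2 in F1 0.111. Groups of 5 to 7 animals set the precision, and the lowest count of any member in a library was 1172 reads.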
